A study of Mus musculus with 18 samples.

Results

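The genes described here encode the subunits of integrins and the chains of laminins, 36 genes of the 55414 in the deposited table. They were taken from a list of gene names, with no rule on their measured values. Earlier results of these data were known when that list was chosen. The genes comprise 18 integrin alpha subunits, 8 integrin beta subunits and 10 laminin chains. RNA was sequenced from organoids, cultured epithelial structures grown from the small intestine of C57BL/6J WT mice, in 18 libraries forming 6 groups of 3. MG_Control was grown from crypts in Matrigel, a basement membrane extract rich in laminin, in ENR medium, which holds R-spondin 1, Noggin and EGF, and MG_5FU was the same culture with 40 µM 5-fluorouracil (5-FU), a pyrimidine analog, on days 4 to 6. COL_Control and COL_5FU were their counterparts in collagen type I with ENRW medium, so that the gel and the medium changed together. COL_cWRNE was grown from crypts in collagen type I with 25% cWRNE medium, and VIL from villi scraped within 3 cm of the pylorus, in the same gel and medium. All cultures were harvested on day 6. The compositions of ENRW and cWRNE are not given in the sources used here. The series describes the 3 replicates of the 5-FU groups as biological, and does not say whether they came from separate mice. For the other groups nothing says how the replicates arose, and their p-values measure the spread between these libraries, which may be technical.

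Integrins are pairs of an alpha and a beta subunit that span the cell membrane and hold the cell to its matrix. Laminins are trimers of an alpha, a beta and a gamma chain and form the sheet of the basement membrane under an epithelium. Integrins alpha 6 beta 4 and alpha 3 beta 1 are the main laminin receptors of epithelia, and alpha 6 beta 4 sits in hemidesmosomes, where it is tied to keratin filaments. Integrins alpha 1 beta 1 and alpha 2 beta 1 bind collagen, those with alpha V bind the RGD motif of fibronectin, vitronectin and latent TGF-beta, and those with beta 2 are found on leukocytes.

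Library totals ranged from 22.3 to 34.5 M estimated counts (M, 1000000 counts), and the 36 genes took 0.089% to 0.582% of them. All 9 epithelial markers examined (Epcam, Cdh1, keratins, Vil1, Cldn7, Cdx1 and Cdx2) reached 1 TPM (transcripts per 1000000 transcripts, a level corrected for gene length) in every group. The 3 VIL libraries stood apart: the summed TPM of 14 leukocyte markers was 219, 783 and 1303 in VIL replicates 1, 2 and 3, against 1.46 to 80.2 in the 15 crypt-derived libraries. In COL_cWRNE, the highest of the crypt-derived groups, Cd68 alone made up 57.3 to 70.9 TPM of that sum, and Tyrobp and Ptprc were at 0. There 5 of the 14 markers reached 1 TPM in any library. Besides Cd68 these were Csf1r (2.32 to 3.19 TPM), Laptm5 (2.73 to 3.89), Trac (1.49 to 3.4) and Fcer1g (1.02 in replicate 2). The sum of 12 mesenchymal markers was 23, 309 and 300 TPM in VIL and at most 7.48 elsewhere. That of 4 platelet and megakaryocyte markers was 77, 401 and 908 TPM in VIL, of which Pf4 made up 76.1, 382 and 762, and at most 2.22 elsewhere. Ppbp made up 0.879, 18.3 and 145 TPM of it. The other 2 of these markers, Gp9 and Gp1ba, were at most 0.071 TPM in VIL and no higher than in the crypt-derived groups. Endothelial markers summed to 1.18, 1.86 and 14.2 TPM in VIL and at most 1.8 elsewhere, muscle markers to 25.2 to 30.2 and at most 15.9, and enteric glia and neuron markers to at most 2.46 anywhere. Of the muscle sum in VIL, Mylk made up 29.4, 25.8 and 21.6 TPM, while Myh2 was at most 0.041 TPM and Actn2 at 0. VIL thus differed from the other groups in these sums as well, and their part in the VIL results below was not tested. Within VIL, Itgb2, Itgam and Itgax rose in the order of the leukocyte sum. So did epithelial subunits such as Itga6 (96.8, 158 and 235 TPM) and Lamb3 (92.3, 127 and 260 TPM). Itga1 (14.5, 14.5 and 14.4 TPM) and Itgb7 (1.23, 1.18 and 1.24 TPM) did not. In bulk RNA, fewer cells of a type and less RNA per cell cannot be told apart.

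Of the 36 genes, 23 had an entry in the RefSeq promoter table (GRCm38.p6, not the build of the deposited table). The 250 bases before the start site are shown for a laminin chain whose response to 5-FU differed between the gels and for a leukocyte integrin subunit present mainly in VIL. Lama5 encodes the laminin alpha 5 chain and lies on the minus strand (chr2:180225860-180226109). Capitals mark the 4 copies of the GC box GGGCGG, letters that Sp1 binds, which begin 196, 128, 59 and 14 bases before the start on either strand. Itgam encodes integrin alpha M and lies on the plus strand (chr7:128062390-128062639). Capitals there mark the 2 copies of GAGGAA, a core that the myeloid factor PU.1 binds, which begin 84 and 15 bases before the start.
Lama5: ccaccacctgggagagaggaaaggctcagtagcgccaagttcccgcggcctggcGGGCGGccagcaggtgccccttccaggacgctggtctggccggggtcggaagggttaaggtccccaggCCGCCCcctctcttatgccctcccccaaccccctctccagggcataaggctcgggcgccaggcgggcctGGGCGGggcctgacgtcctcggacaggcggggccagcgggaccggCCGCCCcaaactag
Itgam: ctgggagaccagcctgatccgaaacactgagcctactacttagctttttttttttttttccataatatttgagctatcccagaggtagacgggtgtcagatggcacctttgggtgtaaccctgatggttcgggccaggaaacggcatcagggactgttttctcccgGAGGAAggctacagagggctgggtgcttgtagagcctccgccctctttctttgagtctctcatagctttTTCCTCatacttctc
Both strands were searched, and no marked match overlaps another. The Lama5 window also holds 1 GAGGAA and the Itgam window 1 GC box. The GC box was found in 32.7% of all 32851 windows of this length and in 8 of the 23 matched genes, and the PU.1 core in 23.3% of windows and in 13 of the 23 genes, epithelial ones included. The AP-1 motif TGANTCA was found in 6.75% of windows and in 1 of the 23 genes, Itgax, and the TEAD motif GGAATG in 12.6% and in 3 genes, Itga10, Itgb1 and Lamb3. The Lama5 window was 72.4% G and C and the Itgam window 49.6%, against a median of 52.4% over all windows. These matches describe letters only.

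Measured per length, 12 of the 36 genes were at 1 TPM or more in all 18 libraries: the integrin subunits Itga1, Itga2, Itga3, Itga6, Itgav, Itgb1, Itgb4, Itgb5 and Itgb6 and the laminin chains Lama5, Lamb3 and Lamc1. Lamb2 also had a mean of at least 1 TPM in every group. Another 10 genes reached a group mean of 1 TPM only in VIL, and 9 reached it in no group. Among alpha subunits, Itga6 gave 42% to 60.7% of the summed TPM of a group and Itga3 18.8% to 25.4%. Among beta subunits Itgb1, the partner of most alpha subunits, gave 51.7% to 73.2%, and among laminin chains Lamb3 gave 51.3% to 76.5%. The summed TPM of the 10 laminin chains was 41.7 ± 6.01 (SD, n = 3) in MG_Control, 47.3 ± 8.41 in MG_5FU, 93 ± 17.1 in COL_Control, 163 ± 4.69 in COL_5FU, 293 ± 55.2 in COL_cWRNE and 312 ± 203 in VIL. MG_Control and MG_5FU did not differ beyond their spread in this sum, nor did COL_cWRNE and VIL, while each other step in this order exceeded it.

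**Figure D1:**
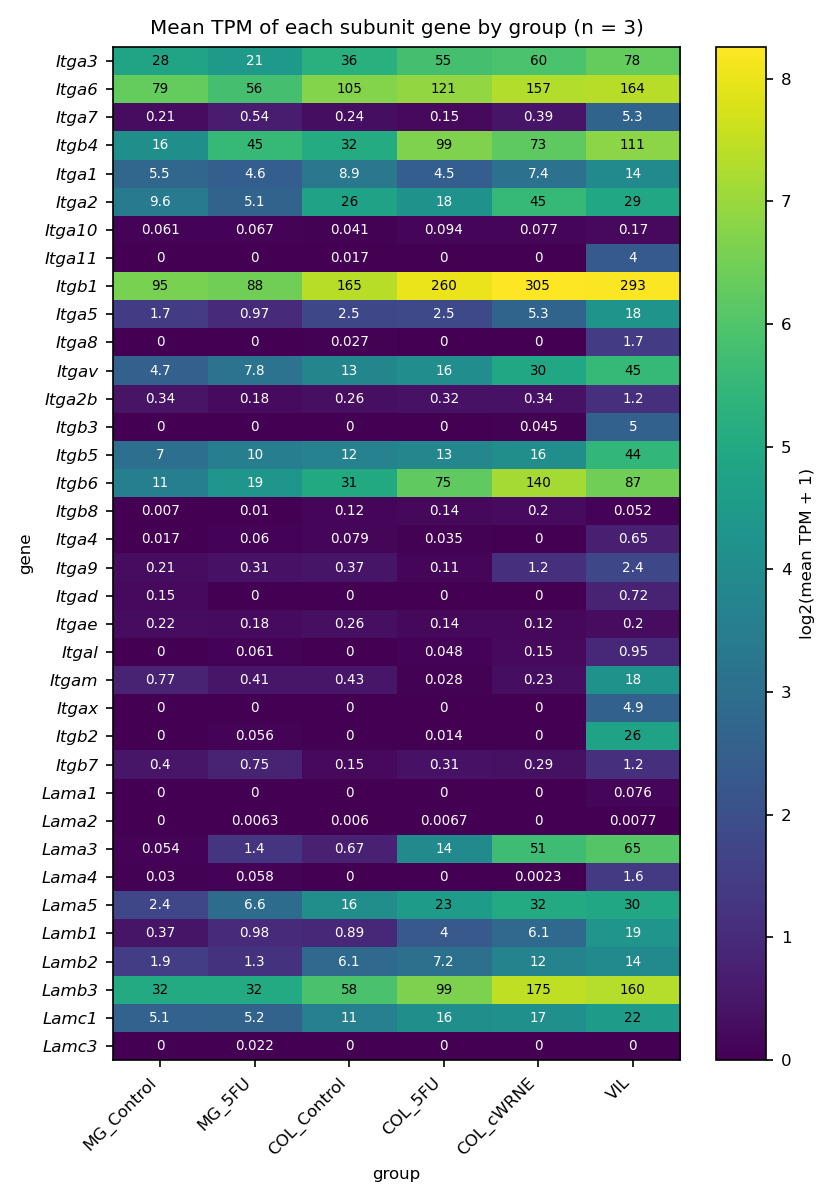
Mean TPM of the 36 subunit genes (rows) in the 6 groups (columns), each the mean of 3 libraries, with the value printed in the cell and colour on a log2(mean TPM + 1) scale. Itga6, Itgb1 and Lamb3 were high in every group, while Itgb2, Itgam, Itgax, Itgb3 and Itga11 stood out only in VIL.

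5-FU was compared with its control within each gel, which asks how the matrix environment bears on the response to chemotherapy. In Matrigel, 8 of the 25 genes with enough counts to be tested passed the test (edgeR quasi-likelihood F-test, Benjamini-Hochberg adjusted p under 0.05 over all 16611 genes tested): 7 were higher and 1 lower. Over all genes tested, 30.9% passed, 19.2% of them higher and 11.7% lower in shares of genes tested. In collagen, 11 of 25 passed, 9 higher and 2 lower, against 35.3% of all genes, 18.6% higher and 16.7% lower. The 9 higher genes of 25 in collagen were above the background share of higher genes. In Matrigel the 7 of 25 lay nearer to that share and include Lamb1, whose call did not hold without several single libraries (given below). The 8 of 25 in Matrigel were near the share of genes called there in either direction. Nothing is read from the Matrigel counts, and no count was tested against other genes. These background splits depend on scaling: 62.2% of all calls in Matrigel were higher, against 44.6% with library totals and 28.2% with limma on TPM, and in collagen 52.8%, against 41.7% and 40.2%. The genes named below as called kept their sign under these scalings. The median log2 fold change of the 25 genes was 0.49 in Matrigel and 0.35 in collagen, and that of all genes 0.06 and -0.03. In Matrigel it was 0.41 without Itgb8, which had at most 2 counts in each group. Without Itga4 and Itga10 the Matrigel median was 0.34. Neither was called, and neither would have passed the filter on low counts without MG_5FU. Itga10 and Itgb8 needed COL_5FU to pass that filter, and the collagen median was 0.35 without them. The 2 comparisons share no library but come from 1 fit, and Itgb4, Itgb6, Lama3, Lama5 and Lamb1 were higher in both, 5 of the 7 higher genes in Matrigel and 5 of the 9 in collagen. The share of all genes that was higher in both gels was not determined, so nothing is read from the size of this overlap.

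Of the laminin alpha chains, Lama3 had the largest rise. It encodes the alpha 3 chain, which together with beta 3 and a gamma chain forms the laminin of hemidesmosomes. Its level was 0.015, 0.067 and 0.079 TPM in MG_Control and 1.23, 2.06 and 0.808 TPM in MG_5FU. In COL_Control it was 0.402, 1.43 and 0.191 TPM, and in COL_5FU 16.5, 13.7 and 12.1 TPM. Treated and control libraries did not overlap in either gel. The log2 fold change was 5.01 ± 0.68 (SE) in Matrigel (adjusted p = 8.38e-05) and 4.6 ± 0.54 in collagen (adjusted p = 3.16e-05), where it was 5.66 without COL_Control replicate 2. The Matrigel value rests on 22 control counts over 3 libraries.

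Lama5, the alpha 5 chain whose promoter is printed above and the main laminin alpha chain under mature intestinal epithelium, was 2.85, 2.53 and 1.86 TPM in MG_Control and 6.68, 4.74 and 8.46 TPM in MG_5FU. It was 20.2, 14.8 and 12.4 TPM in COL_Control and 22.8, 15.7 and 30.1 TPM in COL_5FU, where 1 treated library lay within the control range in TPM, although the groups did not overlap in scaled counts. The log2 fold change was 2.21 ± 0.18 in Matrigel (adjusted p = 1.17e-06) and 0.63 ± 0.16 in collagen (adjusted p = 0.00901). The difference between the 2 responses was tested itself, as an interaction in the same fit. Of the 25 genes Lama5 alone passed, with a log2 difference of -1.58 ± 0.24 (collagen minus Matrigel, adjusted p = 0.00124), against 8.19% of all genes, of which 6.3% of genes tested were lower and 1.88% higher. The call remained without each of the 12 libraries in turn (-1.75 to -1.37). It was lost when all 18 libraries were fitted together (-1.5, adjusted p = 0.147) and with limma on log2(TPM + 1) (-0.65, adjusted p = 0.292). None of the other genes passed in either direction in this fit, where 10 of the 25 had an unadjusted p under 0.05, while DESeq2 called 4, 2 of them higher. With replicate number as a block edgeR also called 4, adding Itga6 (0.58, adjusted p = 0.0277), Itgb1 (0.6, adjusted p = 0.0489) and Itga1 (-0.92, adjusted p = 0.0146). Itgb1 came nearest without the block (0.59 ± 0.18, adjusted p = 0.0634), and passed with RLE size factors (0.64, adjusted p = 0.0447), library totals (0.63, adjusted p = 0.0381) and other filters on low counts (0.55 and 0.68). For Lama3 the difference was -0.41 ± 0.87 in counts, but 2.1 with limma on log2(TPM + 1) (adjusted p = 0.00724), opposite in sign and called. With limma on log2(TPM + 0.1) Lama3 was not called. Its MG_Control values of 0.015 to 0.079 TPM lie far below the 1 TPM added, so the limma value depends on what is added and is not read as a difference between gels.

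Lamb3, the beta 3 chain, was 29.5, 29.6 and 36.5 TPM in MG_Control and 24.1, 35.7 and 35.5 TPM in MG_5FU, which overlapped. In collagen it was 69.8, 56.2 and 49.1 TPM in COL_Control and 105, 104 and 86.8 TPM in COL_5FU, and it passed there (0.88 ± 0.16, adjusted p = 0.000753). The ratio of Lama3 to Lamb3 TPM within a library was 0.00164 ± 0.000985 in MG_Control, 0.0438 ± 0.0185 in MG_5FU, 0.0117 ± 0.0119 in COL_Control and 0.142 ± 0.0131 in COL_5FU. Lamb1, the beta 1 chain of many basement membranes, rose in collagen from 1.13, 0.824 and 0.721 to 4.47, 4.87 and 2.63 TPM. Its rise in Matrigel (log2 1.65, adjusted p = 0.0406) did not hold without MG_Control replicate 2 or 3 or MG_5FU replicate 2 or 3 (1.19 to 1.7, adjusted p of 0.0747 to 0.161), and was 2.75 without MG_Control replicate 1. Lamc1, the gamma 1 chain, rose in collagen by a log2 fold change of 0.64 (adjusted p = 0.0114), a call lost without COL_Control replicate 3 (0.5, adjusted p = 0.0561). Lamb2 passed in neither gel.

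**Figure D2:**
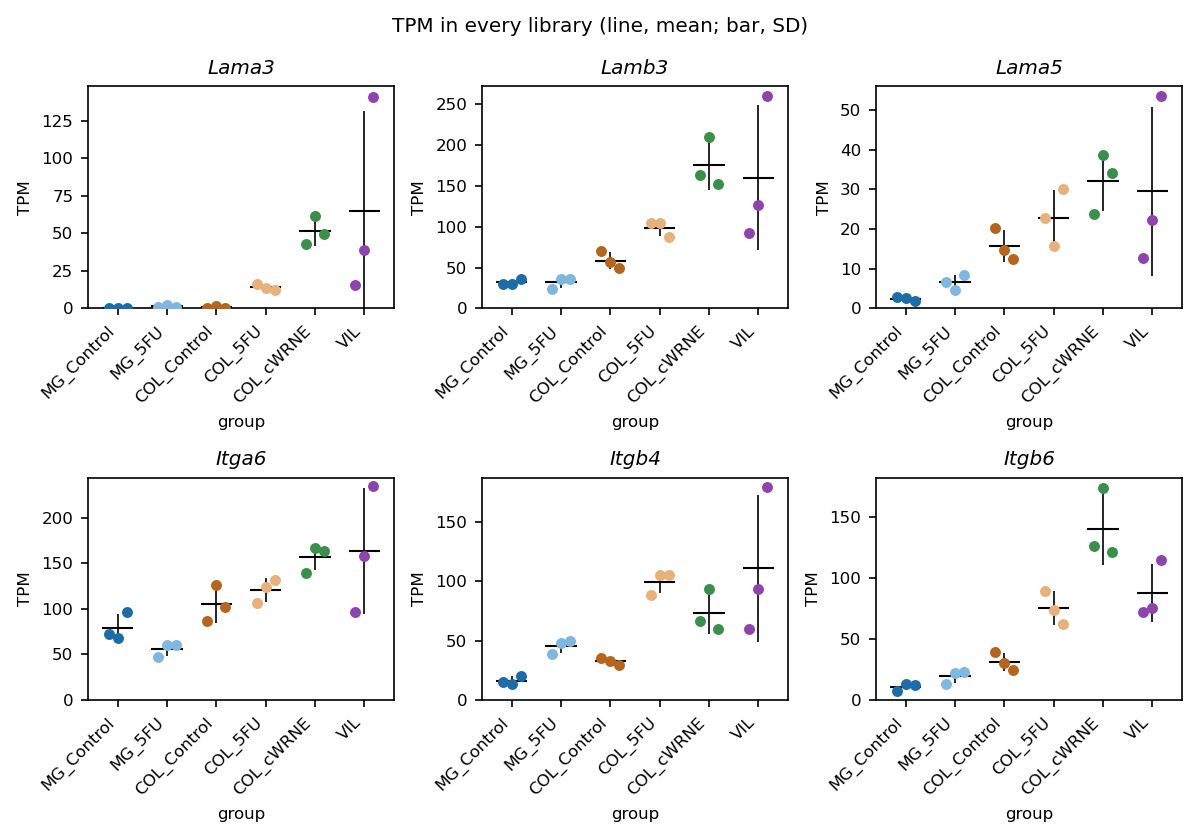
TPM of 3 laminin chains (Lama3, Lamb3, Lama5) and 3 integrin subunits (Itga6, Itgb4, Itgb6) in every library (points), by group, with the mean (line) and SD (bar, drawn down to no less than 0, n = 3). Lama3 is near 0 in MG_Control and 42.7 to 61.7 TPM in COL_cWRNE, and VIL replicate 3 is the highest VIL library in all 6 panels.

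Among the laminin receptors, Itgb4 had the smallest adjusted p of all 25 genes in both gels. It encodes integrin beta 4, the hemidesmosome subunit that pairs only with alpha 6. Its level was 15.4, 13.4 and 20.4 TPM in MG_Control, 38.6, 47.8 and 49.4 in MG_5FU, 35.4, 32.7 and 29.4 in COL_Control and 88.7, 105 and 105 in COL_5FU. No treated library overlapped its controls. The log2 fold change was 1.87 ± 0.12 in Matrigel (adjusted p = 1.39e-07) and 1.75 ± 0.12 in collagen (adjusted p = 3.9e-07).

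Itga6, the partner of Itgb4, did not pass in either gel: its log2 fold change was -0.22 ± 0.13 in Matrigel and 0.35 ± 0.13 in collagen (adjusted p = 0.242 and 0.0542). It passed in collagen with replicate number as a block (0.36, adjusted p = 0.0172), as did Itgb7 (2.77, adjusted p = 0.0498). In Matrigel it passed as lower when library totals (-0.37, adjusted p = 0.0482) or log2(TPM + 1) with limma (-0.48, adjusted p = 0.0406) replaced the scaling used. The within-library ratio of Itgb4 to Itga6 TPM, which needs no scaling between libraries, was 0.213, 0.199 and 0.21 in MG_Control and 0.825, 0.795 and 0.816 in MG_5FU. In collagen it was 0.408, 0.259 and 0.287 without and 0.836, 0.842 and 0.795 with 5-FU. Treated libraries of both gels thus lay between 0.795 and 0.842, all above the controls. Itga3, the other laminin-binding alpha subunit of epithelia, rose in collagen from 43.8, 37.8 and 27.8 to 58.8, 62.6 and 44.4 TPM (log2 0.83 ± 0.15, adjusted p = 0.000677). In Matrigel its log2 fold change of 0.32 ± 0.15 did not pass.

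**Figure D3:**
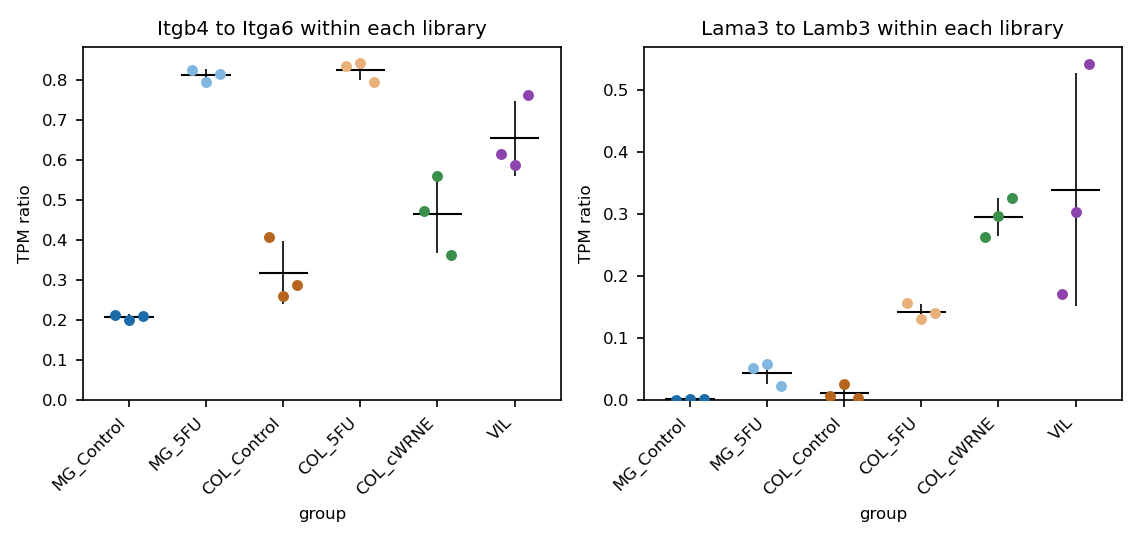
Ratio of Itgb4 to Itga6 TPM (left) and of Lama3 to Lamb3 TPM (right) within each library (points), by group, with the mean (line) and SD (bar, n = 3). The Itgb4 to Itga6 ratio is 0.795 to 0.842 in all 6 libraries treated with 5-FU and at most 0.408 in their controls, and the Lama3 to Lamb3 ratio is highest in COL_cWRNE and VIL.

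The shared subunit Itgb1 was 154, 190 and 153 TPM in COL_Control and 271, 266 and 244 TPM in COL_5FU and passed in collagen (0.81 ± 0.13, adjusted p = 0.000327). In Matrigel, where the TPM values of the groups overlapped, it did not (0.22 ± 0.13, adjusted p = 0.226). Of the collagen-binding alpha subunits, Itga2 fell in Matrigel from 10.1, 9.21 and 9.54 to 3.9, 7.76 and 3.76 TPM (log2 -0.59, adjusted p = 0.00619), and Itga1 fell in collagen from 7.2, 10.4 and 9.16 to 4.12, 3.87 and 5.59 TPM (log2 -0.91, adjusted p = 0.00439). Neither passed in the other gel in this fit, and neither passed the test of the difference between gels, except that Itga1 did with replicate number as a block (given above), at a minimum of 10 CPM, counts per 1000000 counts (-0.94, adjusted p = 0.0429) and by DESeq2 (-0.85, adjusted p = 0.0492). With edgeR, Itga2 was also called lower in collagen with library totals (-0.43, adjusted p = 0.0349) and at a minimum of 10 CPM (-0.37, adjusted p = 0.0448). Its Matrigel call was lost when all 18 libraries were fitted together (-0.65, adjusted p = 0.0589).

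Of the RGD-binding subunits, Itgb6 rose in both gels. It encodes integrin beta 6, an epithelial subunit that pairs only with alpha V and activates latent TGF-beta. It was 7.47, 12.7 and 12.2 TPM in MG_Control, 12.8, 21.9 and 23.3 in MG_5FU, 39.2, 30.1 and 24.3 in COL_Control and 89.7, 74 and 62.5 in COL_5FU. Its log2 fold change was 1.06 ± 0.24 in Matrigel (adjusted p = 0.00373) and 1.52 ± 0.24 in collagen (adjusted p = 0.000269). Itgb5, the other beta partner of alpha V in epithelia, rose in Matrigel (0.91 ± 0.16, adjusted p = 0.000563), and so did Itgav itself, from 5.43, 3.58 and 5.17 to 9.12, 8.1 and 6.11 TPM (0.71 ± 0.17, adjusted p = 0.00581). In collagen both had smaller values that did not pass (0.27 ± 0.15 and 0.41 ± 0.17). The fibronectin receptor subunit Itga5 was -0.57 ± 0.29 in Matrigel and 0.21 ± 0.29 in collagen, and did not pass. Itgam passed as lower in collagen (-3.71 ± 0.99, adjusted p = 0.0102), on 9 counts in COL_5FU against 123 in COL_Control. All 9 counts were in COL_5FU replicate 1, and the value was -3.08 without COL_5FU replicate 3.

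**Figure D4:**
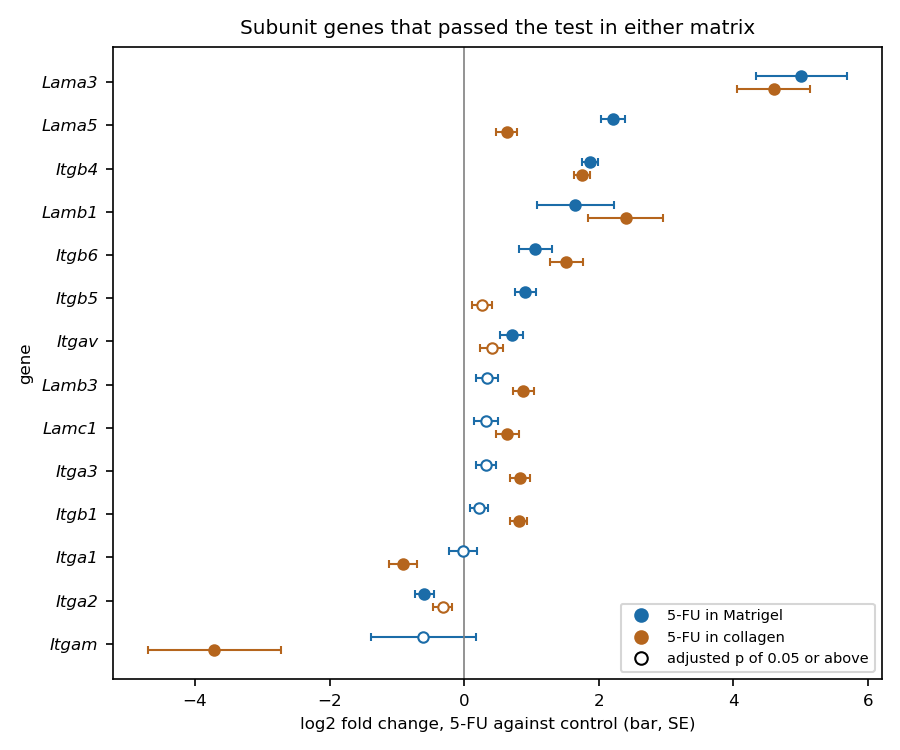
Log2 fold change of 5-FU against control (points, with SE as bars) in Matrigel (blue) and collagen (brown) for the 14 subunit genes that passed the test in at least 1 gel. Filled points passed (adjusted p under 0.05) and open points did not. Lama3 and Itgb4 lie close together in the 2 gels, while Lama5 is at 2.21 in Matrigel and 0.63 in collagen.

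Genes that work with these subunits were followed as 5 lists. Of the 7 tested of 8 hemidesmosome and laminin receptor partners, 4 rose and 1 fell in Matrigel and 3 rose and 1 fell in collagen. Plec, the plectin that ties beta 4 to keratin, was 1.13 ± 0.12 and 0.59 ± 0.12, and Bcam, a receptor for laminin alpha 5, was 1.57 ± 0.2 and 0.92 ± 0.19. Dag1, the precursor of the laminin-binding dystroglycan, fell in both (-1.29 ± 0.15 and -0.54 ± 0.14). Its collagen call was lost without COL_5FU replicate 1 (-0.41, adjusted p = 0.057). Of the 13 tested of 15 basement membrane partners, 4 and 6 rose and 0 fell, with Nid1, the laminin-binding nidogen, at 2.84 ± 0.37 and 2.23 ± 0.33, and Npnt, the ligand nephronectin, at 1.79 ± 0.26 and 2.37 ± 0.25. Of the 11 tested of 15 integrin ligands outside the basement membrane, 5 rose in Matrigel and 6 rose and 1 fell in collagen. Icam1, the ligand of beta 2 integrins, was 4.34 ± 0.29 and 3.19 ± 0.26, and the matricellular ligand Ccn2 was 4.26 ± 0.34 and 2.76 ± 0.3. Of the 22 tested of 25 genes of integrin activation and focal adhesion, 5 rose and 3 fell in Matrigel and 8 rose and 1 fell in collagen, both near the 30.9% and 35.3% of all genes that passed. Lims1, the focal adhesion adaptor PINCH1, rose in collagen (1.02 ± 0.11). Of 5 other collagen receptors 1 was tested, Ddr1, and it rose in both gels (1.27 ± 0.11 and 0.92 ± 0.11). None of these counts was tested against other genes.

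The gels were compared without drug, COL_Control against MG_Control, where the gel and the medium cannot be told apart. Of 25 genes tested, 13 were higher in collagen and 0 lower, against 31.2% of all genes, 15.8% higher and 15.4% lower. Itgb8, 1 of the 13, would not have passed the filter on low counts without COL_Control. Of the other 24 tested, 12 were higher. By unadjusted p under 0.05 edgeR had 1 gene lower, Itgb7, and DESeq2 called 13 higher and 0 lower. The median log2 fold change of the 25 was 0.71, or 0.66 without Itgb8, and that of all genes 0.04. Lama5 led, at 20.2, 14.8 and 12.4 TPM in COL_Control against 2.85, 2.53 and 1.86 TPM in MG_Control (log2 3.01 ± 0.18, adjusted p = 1.55e-07). Itgav was 15.4, 11.4 and 11.5 against 5.43, 3.58 and 5.17 TPM (1.4 ± 0.17, adjusted p = 4.27e-05). Itga2, the collagen receptor subunit, was 24.6, 37.6 and 16.2 against 10.1, 9.21 and 9.54 TPM (1.12 ± 0.14, adjusted p = 5.66e-05). Itgb4 (0.84 ± 0.12), Lamb2 (1.71 ± 0.26) and Lamc1 (0.93 ± 0.18) followed, with groups that did not overlap. The other 7 that passed were Itgb6, Lama3, Itgb1, Lamb3, Itgb8, Itgb5 and Itga3, at log2 0.43 to 5.27. Of these, Itgb8 rests on 1 count in MG_Control and 54 in COL_Control and was below 1 TPM everywhere. That count was in MG_Control replicate 3. Lama3 was 2.3 in place of 3.37 without COL_Control replicate 2, and the call of Itga3 was lost without any 1 of the 3 MG_Control libraries or COL_Control replicate 1. Itga6 did not pass (0.23 ± 0.13). Of the partners, Bcam (2.35 ± 0.2) and Agrn (1.69 ± 0.13) were higher in collagen, and the collagen IV chains Col4a1 and Col4a2, which form the second network of the basement membrane, went from at most 0.374 TPM in MG_Control to 5.82 to 25.1 TPM in COL_Control. Ntn4, a netrin that binds laminin, was lower (-2.68 ± 0.36).

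The medium was compared within collagen type I, COL_cWRNE against COL_Control. Of 32 genes tested over all 18 libraries, 12 were higher in cWRNE and 0 lower, against 18% of all genes, 13.1% higher and 4.85% lower. Itgb3 would not have passed the filter on low counts without COL_cWRNE and was not called. Of the other 31 tested, 12 were higher. By unadjusted p under 0.05 edgeR had 1 gene lower, Itga4, and DESeq2 called 15 higher and 1 lower. With 4 genes at 0 in 1 of the groups set at the bound that 3 counts give, and 4 with at most 3 counts in both left out, the median log2 fold change was 1.01, and that of all genes 0. Of all calls 73% were higher, against 45.2% with library totals and 51.4% with limma on TPM, and the genes named as called kept their sign. Itgb6 was 126, 174 and 121 TPM in COL_cWRNE against 39.2, 30.1 and 24.3 in COL_Control (log2 2.29 ± 0.24, adjusted p = 1.96e-05). Lama3 was 42.7, 61.7 and 49.6 against 0.402, 1.43 and 0.191 TPM (6.43 ± 0.74, adjusted p = 3.13e-05), and 7.49 without COL_Control replicate 2. Lamb3 was 163, 209 and 152 against 69.8, 56.2 and 49.1 TPM (1.67 ± 0.25, adjusted p = 0.000293). For all 3 genes the groups lay far apart. Itgb4 (1.29 ± 0.24), Itgb1 (1.01 ± 0.19) and Lamb1 (2.98 ± 0.57) passed as well, followed by Itga2, Itga3, Itgav, Lama5, Itga6 and Itga9. Itga9 lost its call with replicate number as a block (adjusted p = 0.0618) and without any 1 of the 6 libraries, and Itga6 kept it only without COL_Control replicate 2. Itga3 and Lama5 lost theirs without COL_Control replicate 2 or 3 or COL_cWRNE replicate 2 (Itga3 0.74 to 0.78, Lama5 1.11 to 1.29), and Itgav without COL_cWRNE replicate 2 (1.36, adjusted p = 0.0533). Among partners, 6 of 8 hemidesmosome genes rose, Plec (1.44 ± 0.19), Krt14 (6.67 ± 1.09) and Cd151 (0.83 ± 0.17) with the smallest adjusted p. The transmembrane collagen Col17a1, a hemidesmosome component of skin, had 4 counts in COL_cWRNE. Of the RGD ligands, Fn1 was 39, 119 and 48.4 TPM in COL_cWRNE against 0.615 to 0.816 in COL_Control, and Spp1 98.2, 226 and 83.1 against 0.752 to 1.25 TPM.

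Against MG_Control, COL_cWRNE had 17 of 31 tested genes higher and 0 lower (33.3% of all genes passed, 20.1% higher and 13.1% lower). Without COL_cWRNE, Itga10, Itgb3 and Itgb8 would not have passed the filter on low counts. Of these 3 genes 1 was called higher, and of the other 28 tested 16 were. A set of 8 genes, Itgal among them, needed VIL to pass that filter. Of these 8 genes 1 was called higher, and of the other 23 tested 16 were. By unadjusted p under 0.05 edgeR had 2 genes lower, Itgad and Itgam, and DESeq2 called 18 higher and 1 lower. With 3 genes at 0 in 1 of the groups set at the bound that 3 counts give and 3 genes with at most 3 counts in both left out, the median log2 fold change was 1.56, and that of all genes -0.01. The gel, the medium and its factors all differ between these groups. Lama3 differed by a log2 fold change of 9.76 ± 0.92 (adjusted p = 7.47e-05), a 944-fold ratio of mean CPM that rests on 22 counts in MG_Control and 20544 in COL_cWRNE. Itgb6 (3.5 ± 0.22), Lama5 (4.3 ± 0.51), Lamb3 (2.34 ± 0.29), Itga2 (2.12 ± 0.28) and Lamb2 (2.47 ± 0.34) followed by adjusted p, with groups that did not overlap. Lamb1 was 5.03 in place of 3.89 without MG_Control replicate 1. Itga6, Itga9, Itgal, Itgb5 and Itgb8 each lost the call without at least 1 library. Itgal, with 49 counts in COL_cWRNE and 0 in MG_Control, at least 15.1-fold higher, lost it without 5 of the 6.

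The leukocyte subunits were low in the crypt-derived libraries, and Itgb2, Itgam and Itgax were higher in VIL. Itga7 and Itga11, which are not leukocyte subunits, were also low in the crypt-derived groups and higher in VIL, so this pattern does not set the class apart. The 7 leukocyte genes were Itgad, Itgae, Itgal, Itgam, Itgax, Itgb2 and Itgb7. In the 15 crypt-derived libraries their highest value was 1.47 TPM (Itgam in MG_Control replicate 1), 2 of them reached 1 TPM in any library, and their summed TPM was 0.406 to 2.06. In VIL replicates 1, 2 and 3 the sum was 17.5, 41.9 and 95.3 TPM, and Itgb2 and Itgam gave 50.5% and 34.1% of its mean. Itgb2, the beta subunit common to the leukocyte integrins, was 8.06, 23.9 and 46.1 TPM in VIL and at 0 counts in MG_Control, COL_Control and COL_cWRNE. Itgam, the alpha subunit of macrophages, monocytes and neutrophils whose promoter is printed above, was 5.6, 10.8 and 36.4 TPM, and Itgax, a subunit of dendritic cells and macrophages, 1.82, 4.48 and 8.32 TPM against 0 counts in all 15 crypt-derived libraries. Itgae, the alpha E subunit of intraepithelial lymphocytes, was 0, 0.418 and 0.182 TPM in VIL and 0.044 to 0.439 TPM elsewhere. Of the T cell markers, Trac was 0.426, 0.859 and 2.26 TPM and Cd3e 0, 0.337 and 0.303 TPM in VIL, and Cd3g and Cd8a were at 0 in all 18 libraries. Trac had a higher mean in COL_cWRNE, at 3.25, 3.4 and 1.49 TPM. The myeloid adaptors were at 71.7, 243 and 347 TPM (Tyrobp) and 33.7, 155 and 280 TPM (Fcer1g). For Itgb2, Itgam and Itgax the order of the VIL libraries was that of their leukocyte marker sums. The order was the same for Itga3, Itga6, Itgb4, Lama3 and Lamb3, so it was not particular to leukocyte subunits. Itgal, the alpha subunit of lymphocytes and other leukocytes, was 0.227, 0.973 and 1.64 TPM in VIL, Itgad 0.608, 0.202 and 1.34, and Itgb7, the partner of alpha E and alpha 4, 1.23, 1.18 and 1.24. In MG_5FU replicate 2 Itgb7 was 1.26 TPM, above all VIL libraries.

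**Figure D5:**
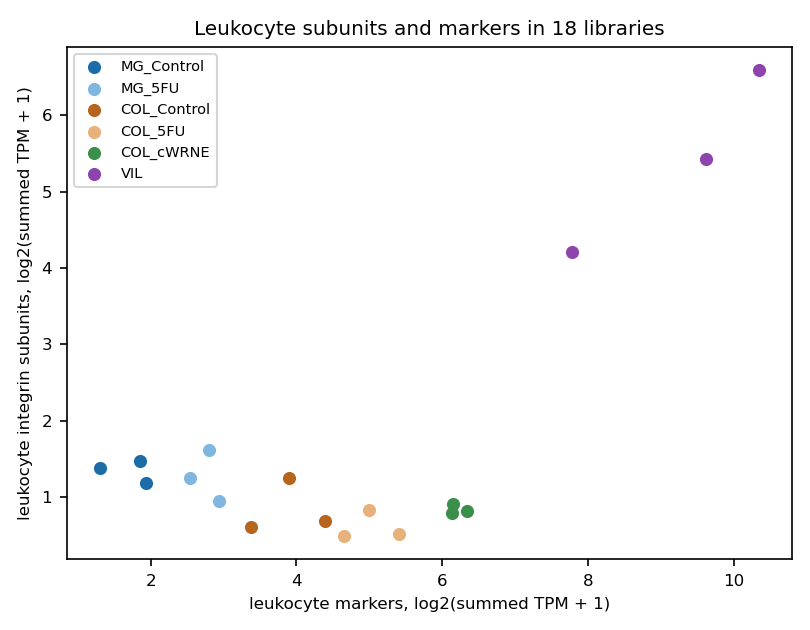
Summed TPM of 7 leukocyte integrin subunits (vertical) against that of 14 leukocyte markers (horizontal) in 18 libraries (points, coloured by group), both as log2(summed TPM + 1). The 15 crypt-derived libraries lie at subunit sums of at most 2.06 TPM, and the 3 VIL libraries at 17.5, 41.9 and 95.3 TPM.

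VIL was compared with COL_cWRNE, the crypt-derived culture in the same gel and medium. Of 31 genes tested, 8 were higher in VIL and 0 lower, against 7.64% of all genes, 5.68% higher and 1.96% lower. By unadjusted p under 0.05 edgeR had 2 genes lower, Itga2 and Itgb6, and DESeq2 called 10 higher and 0 lower. Itga11, Itga2b, Itgad, Itgal, Itgax, Itgb2, Itgb3 and Lama4 would not have passed the filter on low counts without the VIL libraries. Of these 8 genes 4 were called, and of the other 23 tested 4 were, so that nothing is read from the 8 of 31 against the background share. The number of calls ran from 3 to 14 when a library was left out: 3 without COL_cWRNE replicate 1 or 3, 4 without COL_cWRNE replicate 2 or VIL replicate 2, and 14 without VIL replicate 1. Itgam (6.2 ± 0.88, adjusted p = 0.00468), Itgb2 (at least 1714-fold higher, adjusted p = 0.005) and Itgax (at least 443-fold higher, adjusted p = 0.00556) passed without each of the 6 libraries in turn, and Itgam was 5.26 without VIL replicate 3. Itgb5, which is also expressed by mesenchymal cells and macrophages, was 23.6, 40.8 and 66.5 TPM against 17.5, 16 and 14.8 (1.45 ± 0.28, adjusted p = 0.0157). Its call was lost without any 1 of the COL_cWRNE libraries (1.4 to 1.62). The collagen receptor subunit Itga1 was 14.5, 14.5 and 14.4 TPM against 6.1, 6.58 and 9.55 (0.97 ± 0.23, adjusted p = 0.033), a call lost without any 1 of the COL_cWRNE libraries or VIL replicate 2 (0.88 to 1.16). Itga11, a collagen receptor subunit of fibroblasts, was 0.37, 1.25 and 10.5 TPM in VIL, at least 449-fold higher than the 0 counts of COL_cWRNE (adjusted p = 0.0371), and was not called without any 1 of the COL_cWRNE libraries or VIL replicate 2.

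Itga7, the laminin receptor subunit of muscle (4.14, 4.36 and 7.47 TPM in VIL), and Lama4, the alpha 4 chain of vessels and mesenchyme (0, 2.38 and 2.54 TPM), also passed. The call of Itga7 was lost without COL_cWRNE replicate 1 or 3 or VIL replicate 2 or 3, and that of Lama4 without every library but VIL replicate 1. Among partners, Fermt3, the kindlin that activates integrins in blood cells, passed as well, at 4.49, 11.6 and 18.3 TPM in VIL and at most 0.136 in COL_cWRNE (6.67 ± 0.64, adjusted p = 0.000871). Itga3, Itga6, Itgb1, Itgb4, Itgb6, Lama3, Lama5 and Lamb3 did not pass: Itga6, for example, was 96.8, 158 and 235 TPM in VIL and 140, 167 and 164 in COL_cWRNE. VIL replicate 3 had the highest level of most of them and the highest marker sums of the leukocyte, platelet and endothelial lists. With VIL replicate 1, the library with the lowest sums of leukocyte and mesenchymal markers, as the only villus-derived library, 4 genes were higher and 5 lower. The 4 were Itgam (4.76), Itgb2, Itgax and Itga1 (1.12), and the 5 were Itga2 (-1.3, adjusted p = 0.00195), Lama3 (-1.54, adjusted p = 0.00556), Lama5 (-0.99), Lamb3 (-0.78) and Itgav (-0.79). The fit on VIL replicate 1 alone assumes that the single library varies like those of the other groups, and it was added after the data were seen. Lama3, in TPM, was 15.8, 38.6 and 141 in VIL replicates 1, 2 and 3 and 42.7 to 61.7 in COL_cWRNE.

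Against MG_Control, VIL had 27 of 31 tested genes higher and 0 lower, against 46.6% of all genes, 27% higher and 19.7% lower. By unadjusted p edgeR had 0 genes lower, and DESeq2 called 26 higher and 0 lower. Of the 8 genes that entered the test only through VIL, 7 were called, and of the other 23 tested 20 were. Itgb2, Itgax, Itgb3 and Itga2b are among these 8. They could be tested only because of their VIL counts, so their folds and adjusted p describe levels and are not used as support. The median log2 fold change of all genes was 0.02. Source, gel and medium all differ here, and so do the marker sums given above. Itgb6 (2.91 ± 0.22, adjusted p = 3.01e-05), Lama3 (10.07 ± 0.92), Lama5 (4.59 ± 0.52), Itgb5 (2.54 ± 0.29), Lamb2 (2.99 ± 0.35) and Itgb4 (2.63 ± 0.31) had the smallest adjusted p. Without VIL replicate 3, Lama3 was 8.95 and Lama5 3.79, both still called. Itga5, the fibronectin receptor subunit of mesenchymal and many other cells, was 2.95, 13 and 39.6 TPM in VIL against 0.67 to 6.45 TPM in the other groups and passed (3.23 ± 0.7, adjusted p = 0.00511). The leukocyte genes Itgb2 and Itgax were at least 1558-fold and at least 403-fold higher. Itgb3, the beta subunit of platelets and also of macrophages and mesenchymal cells, was 0.07, 3.46 and 11.4 TPM in VIL and at 0 counts in MG_Control, at least 608-fold higher (adjusted p = 0.00675). In VIL replicate 1 Itgb3 had 9 counts. Its platelet partner Itga2b was 0.349, 1.36 and 1.77 TPM in VIL against 0.127, 0.525 and 0.38 in MG_Control (2.46 ± 0.81, adjusted p = 0.0327), overlapping in TPM, a call lost without MG_Control replicate 1 or 3 or VIL replicate 2, while the value was 3.88 without MG_Control replicate 2. The calls of Lama4 and Itgb8 were each lost without at least 4 of the 6 libraries.

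The remaining genes were at low levels throughout the crypt-derived cultures. Lama1, the laminin alpha chain of the early embryo, was at 0 counts in all 15 crypt-derived libraries, and Itga8, the alpha 8 subunit of smooth muscle and mesenchyme, at 0 in 14 of them, with 9 counts in COL_Control replicate 2. In VIL they were at 0, 0.019 and 0.209 TPM and at 0.058, 1.42 and 3.62 TPM. Lama2, the alpha 2 chain of muscle, did not exceed 0.023 TPM in any library, and Lamc3, the gamma 3 chain, had counts in MG_5FU replicate 2 alone. Itga4 and Itga9, which bind VCAM-1, fibronectin or tenascin, were at most 1.19 and 5.54 TPM, both in VIL replicate 3. Itga10, a collagen receptor subunit of cartilage, stayed at or below 0.369 TPM. A count of 0 over the 3 libraries of a group allows up to 3 counts, and such floors cover counting error only.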

How the data were processed

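RNA from 18 organoid libraries in 6 groups of 3 was sequenced by the authors after SMART-Seq and Nextera XT preparation, per the labels' protocols. bcl2fastq 2.20, DRAGEN and build GRCm39 (mm39) are named in the submitters' processing notes. The counting tool, annotation and use of strand are not given in the sources used here, so reads of overlapping or antisense genes cannot be told apart. The authors deposited estimated counts (67.8% of nonzero values whole) and TPM for 55414 genes in 1 table, and 52081 of the gene IDs carry a symbol. Totals ran from 22.3 to 34.5 M counts (M, 1000000 counts). Estimated counts were rounded and tested with edgeR 4.0.16 in R 4.3.3 (quasi-likelihood F-test, TMM scaling, filterByExpr with a minimum count of 10 and total of 15, Benjamini-Hochberg adjustment over all genes tested, calls at adjusted p under 0.05). The 2 × 2 of gel and 5-FU was fitted on 12 libraries, comparisons among MG_Control, COL_cWRNE and VIL on 9, and COL_cWRNE against COL_Control on 18. TPM served for levels between genes, and CPM, computed from the deposited counts with TMM totals, for ratios. Where a group had 0 counts, a fold is a lower bound against 3 counts over its 3 libraries.

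DESeq2 1.42.0, limma 3.58.1 on log2(TPM + 1) and log2(TPM + 0.1), other scalings, filters, fits and left-out libraries were alternatives, and a fit in which VIL replicate 1 alone stood for the group was added after seeing the data. All 36 genes were described, with full statistics for up to 6 called genes of smallest adjusted p in a comparison and up to 3 called genes per list of partners. Col4a2, Col17a1, Dag1 in collagen, Ntn4 between the gels and statistics of further members were added after their values were seen. The members and lists were chosen with earlier results of these data known. Scripts were tested on simulated counts. Replicates of a group differed by more than counting noise (chi-square per degree of freedom at least 11.3 over 18 pairs). Equal replicate numbers in the labels were checked for pairing through the correlation of deviations from group means. It exceeded 0.1 in 3 of 3 pairs for 5-FU in collagen (0.226 to 0.444) and for COL_cWRNE against COL_Control (0.204 to 0.326), a hint of pairing from the data alone. The reported fits held the group only, with no replicate block, for these 2 comparisons too. With replicate number as a block they had 13 and 11 calls in place of 11 and 12. Promoter windows are from RefSeq on GRCm38.p6.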

Additional observations from a re-analysis of the deposited data

Results flagged for a closer look

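The response of Lama5 to 5-FU differed between the gels by the test of that difference, a log2 difference of -1.58 (collagen minus Matrigel, edgeR, adjusted p = 0.00124). Its level was 1.86 to 2.85 TPM in MG_Control and 4.74 to 8.46 in MG_5FU, and 12.4 to 20.2 TPM in COL_Control and 15.7 to 30.1 in COL_5FU. The collagen control libraries were thus already above all the treated libraries in Matrigel. The difference was lost when all 18 libraries shared a fit (-1.5, adjusted p = 0.147).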

How the results depend on the processing

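Of the 97 called values of single genes over all comparisons, leaving out a library gave 588 values, of which 513 kept their direction and side of the threshold, 75 lost the call and 0 reversed. The other settings gave 1043 values: 961 kept both, 80 lost the call and 2 reversed, both of Lama4 with VIL replicate 1 alone standing for its group (-1.81 against COL_cWRNE and -5.16 against MG_Control), where Lama4 was at 0 TPM. A minimum absolute log2 fold change of 1 left 5 called genes under 5-FU in each gel and 7 for COL_Control against MG_Control. Fitting all 18 libraries gave 5 for 5-FU in Matrigel and 0 for the difference between gels (6 at unadjusted p under 0.05, edgeR). For that difference, 1 by the reported fit, RLE size factors gave 2, library totals 2, no filter 3, a minimum of 10 CPM 3, DESeq2 4 and limma on log2(TPM + 1) 2. For VIL against COL_cWRNE, 8 by the reported fit, a minimum of 10 CPM gave 5 and limma 5 with either pseudocount, and for COL_cWRNE against COL_Control limma gave 6 in place of 12 with either. The cause of these changes was not tested, apart from limma and the 10 CPM minimum testing fewer genes. Without 1 library the counts ran from 7 to 9 for 5-FU in Matrigel, 11 to 13 in collagen, 1 to 4 for their difference, 12 to 14 for COL_Control against MG_Control, 3 to 14 for VIL against COL_cWRNE, 24 to 28 for VIL and 12 to 17 for COL_cWRNE against MG_Control, and 8 to 12 for COL_cWRNE against COL_Control.

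With replicate number as a block, the count of called genes was 8 for 5-FU in Matrigel, 13 in collagen, 4 for their difference, 14 for COL_Control against MG_Control, 7 for VIL against COL_cWRNE, 26 for VIL and 16 for COL_cWRNE against MG_Control, and 11 for COL_cWRNE against COL_Control. The difference between gels then also passed for Itga6 (0.58, adjusted p = 0.0277), Itgb1 (0.6, adjusted p = 0.0489) and Itga1 (-0.92, adjusted p = 0.0146). Outside the 2 comparisons with a hint of pairing the same-numbered libraries correlated at -0.134 to 0.516, not above 0.1 in every pair, and share only a number.

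Over all genes, the same minimum fold change lowered the calls from 5128 to 2167 for 5-FU in Matrigel, from 5862 to 2218 in collagen, from 1360 to 802 for their difference, from 5188 to 2215 for COL_Control against MG_Control, from 7789 to 4794 for VIL and from 5556 to 3358 for COL_cWRNE against MG_Control, and from 3184 to 1543 for COL_cWRNE against COL_Control. The difference between gels had 521 calls with all 18 libraries and 2198 by DESeq2. VIL against COL_cWRNE had 1276, against 847 at 10 CPM, 2480 with all 18 libraries, 743 with those 2 groups alone, 2256 by DESeq2 and 351 to 2050 without 1 library. COL_cWRNE against MG_Control had 3630 or 3654 calls without MG_Control or COL_cWRNE replicate 2, and against COL_Control 1907 to 2669 without single libraries. Calls for VIL against MG_Control fell to 4637 with VIL replicate 1 alone. Of all calls, the share that was higher moved by over 10 points in other comparisons too: for the difference between gels from 23% to 33.7% (RLE), 33% (library totals) and 57.8% (limma on TPM), for COL_Control against MG_Control from 50.7% to 72.8% (limma on TPM) and for VIL against COL_cWRNE from 74.4% to 54% (limma on TPM). The median log2 fold change of all genes moved most for 5-FU in Matrigel, from 0.06 to -0.22 with limma on TPM.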
